A study of Mus musculus with 14 samples.

Results

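Kidney RNA of preterm-born mice with streptozotocin-induced diabetes (PT-D) was compared with that of term-born mice with the same treatment (T-D). These were the 3 PT-D and 4 T-D libraries of the 14 in the series, chosen by their sample titles, and the 7 nondiabetic libraries (4 T-ND and 3 PT-ND) were used only to place the results. All were wild-type female CD-1 mice, an outbred stock, and total RNA came from a whole kidney at 18 weeks of age, with 1 library per mouse. Both diabetic groups received streptozotocin (STZ), a toxin of pancreatic beta cells, and some PT-D mice but no T-D mice of the study needed a second round of it. By the study's numbers of PT-D mice, at least 1 of the 3 sequenced PT-D mice was among these. The sources used here do not say which. Per the study's methods, every mouse was injected with cationic ferritin for imaging and sedated with tribromoethanol before the kidneys were taken, and the left renal pedicle was clamped before formalin perfusion. Preterm pups were delivered by Caesarean section to foster mothers that were given acepromazine, while term pups were born naturally. Preterm birth cannot be told apart from these differences in handling. Low-dose STZ gives insulin deficiency through loss of beta cells and was used here as a model of hyperglycemic kidney injury.

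Diabetes exposes the kidney to high glucose at the glomerular filter, which is built of podocytes, endothelial cells and the matrix between them, and in the proximal tubule, which takes glucose back up and burns fuel in many mitochondria to do so. Heme oxygenase 1 and the other targets of the transcription factor NRF2 are known as inducible defences of tubule cells against heme, iron and oxidants. Notch receptors and ligands, VEGF receptors and semaphorins carry signals between the cells of the glomerulus and of the vessels.

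Between 16697246 and 28673176 reads were counted on genes per T-D library and between 21079460 and 26187982 per PT-D library. T-D replicate 4 stood apart within its group, with counts on 19589 genes against 20758 to 21586 in the other T-D libraries and a normalization factor of 0.839. The first principal component of the 7 libraries took 36.5% of the variance and placed all 4 T-D libraries at or below -8.76 and all 3 PT-D libraries at or above 17.04. The library names of T-D replicate 1 and PT-D replicate 1 carry the suffix a, which the sources used here do not explain, and the other 5 carry none. Markers of the proximal tubule summed to between 432100 and 600900 normalized counts per T-D library and between 435700 and 569900 per PT-D library, so the labelled tissue's markers were abundant in each. Normalized counts are reads scaled to a common library size over the 14 libraries.

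Of 22294 genes tested, 30 were higher and 13 lower in PT-D than in T-D by edgeR's quasi-likelihood test, for which a gene needed an adjusted p below 0.05 together with a difference of more than 1 on the log2 scale. These differentially expressed genes (DEGs) were 0.135% and 0.0583% of the genes tested. The authors' test, DESeq2, at the same thresholds gave 341 higher and 320 lower genes (1.53% and 1.44%), and all 43 edgeR DEGs were among them. An unadjusted p under 0.05 was found for 11.4% of the genes in the higher and 10.9% in the lower direction. The PT-D and T-D libraries did not overlap in 12.4% of the genes, all PT-D libraries being higher, and in another 10.6% all were lower. Across all genes tested the median log2 fold change was 0.06, and 53.7% of genes were above 0. Of the DEGs, 29 of the 30 higher and all 13 lower were separated in this way, the exception being Rps2-ps10. The higher DEGs were 21 protein-coding genes, 4 long noncoding RNAs, 4 processed pseudogenes and an immunoglobulin constant gene, and the lower DEGs were 10 protein-coding genes, a long noncoding RNA, a pseudogene and a ribosomal RNA.

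**Figure D1:**
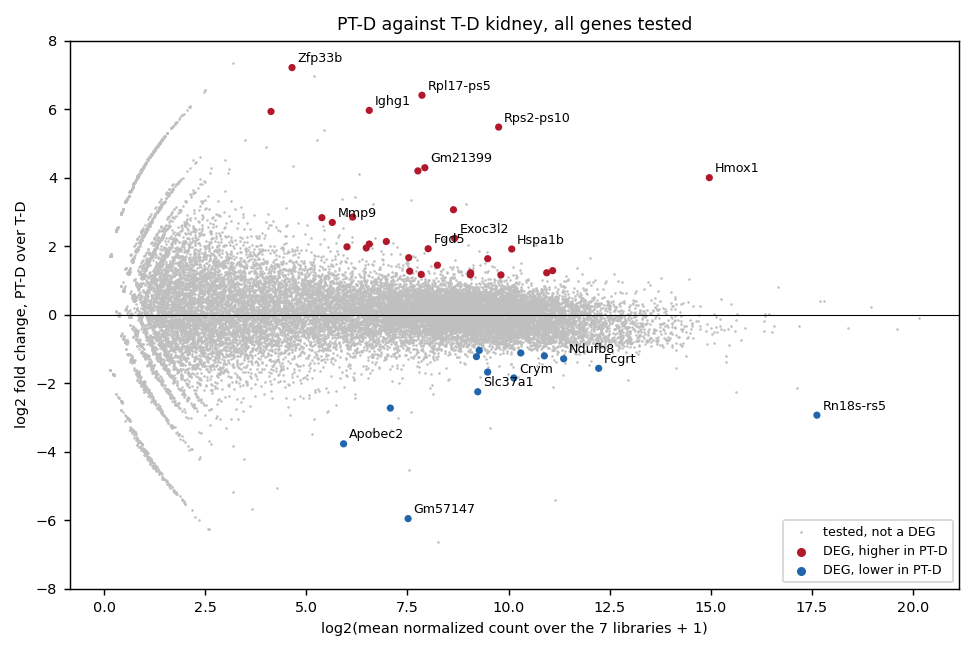
Each point is a gene, with the log2 of its mean normalized count plus 1 over the 7 libraries on the x axis and its log2 fold change of PT-D over T-D on the y axis, and 4 genes with a fold change beyond 8 on the log2 scale, the DEG Gm42047 among them, are not drawn. The 30 higher DEGs (red) span low to high counts, with Hmox1 at the right near 4, and the 13 lower DEGs (blue) reach from Gm57147 near −6 to the ribosomal RNA Rn18s-rs5 at the far right.

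Genes of the response to heme, oxidants and misfolded protein, grouped after their values were seen, were among the higher DEGs. Hmox1 (chromosome 8, 75820241 to 75827217 in GRCm39), which encodes the enzyme that degrades heme to biliverdin, carbon monoxide and iron, had the highest counts of these. It had 3599, 6651, 4704 and 2232 normalized counts in T-D replicates 1 to 4 and 59760, 70850 and 76460 in PT-D replicates 1 to 3. The log2 fold change was 4.00 (standard error 0.32), a 16-fold difference (adjusted p = 0.000231). Every PT-D library was thus far above every T-D library, and the suffix-a libraries of the 2 groups had 3599 and 59760. The nondiabetic libraries did not follow the same division. T-ND replicates 1 and 2, both of suffix a, had 79420 and 72240 normalized counts of Hmox1, and T-ND replicates 3 and 4 had 1539 and 2674. The 3 PT-ND libraries had 27210, 41300 and 69170. Levels as high as in PT-D were therefore also seen in nondiabetic kidneys, in term as well as preterm mice, and the low level in all 4 T-D libraries was shared by 2 of the 7 nondiabetic libraries. The nondiabetic log2 fold change was 0.24 (standard error 1.05).

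Osgin1, an NRF2 target that restrains cell growth under oxidative stress, had 1037, 1572, 1256 and 1138 normalized counts in T-D and 3064, 2426 and 3300 in PT-D. It rose 2.34-fold (log2 fold change 1.22, adjusted p = 0.0263). Hspa1b, the inducible HSP70 chaperone, had 587.7, 553.2, 282 and 544.5 in T-D and 1251, 1718 and 2633 in PT-D, a 3.78-fold difference (adjusted p = 0.0201). In both genes the lowest PT-D library lay well above the highest T-D library. Hspa1b and its neighbour Hspa1a share 99.2% of their bases over 2201 aligned positions, so reads may be split between them, and Hspa1a had 57.2 to 148.7 normalized counts in T-D and 249 to 586.2 in PT-D (log2 fold change 1.79, adjusted p = 0.0664). Sesn2, which encodes the stress-inducible sestrin 2, a brake on the growth kinase mTORC1, ranged from 1018 to 1748 in T-D and from 2506 to 4027 in PT-D and rose 2.44-fold (adjusted p = 0.0377).

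The promoter of Hspa1b is shown because it holds the letters GAANNTTC, a palindrome to which heat shock factors are known to bind. The window is the 250 bases before the gene's start from RefSeq, chr17:34959239-34959488 on the minus strand of GRCm38.p6, with the match in capitals.
Hspa1b promoter: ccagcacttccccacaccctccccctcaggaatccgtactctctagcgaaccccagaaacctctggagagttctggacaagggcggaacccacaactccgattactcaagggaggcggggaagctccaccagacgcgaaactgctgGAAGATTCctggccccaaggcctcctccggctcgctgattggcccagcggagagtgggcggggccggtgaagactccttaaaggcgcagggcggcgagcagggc
The match starts 104 bases before the gene's start. The same letters, searched on both strands, occur in 7.86% of the 32851 RefSeq promoter windows, which run to 50 bases past the start, so the match is a description of this sequence and not a measured binding site.

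Of 24 heat shock genes tested, 20 had a log2 fold change above 0, with a median of 0.32. Against 12.4% of all genes, 9 of them had every PT-D library above every T-D library. Hspa1b was the only DEG. Among those that did not pass the test, the HSP90 co-chaperone gene Chordc1 had 805.5 to 876.5 normalized counts in T-D and 1256 to 1694 in PT-D (adjusted p = 0.0628), and Bag3, a co-chaperone of HSP70, had 538 to 740.9 and 1002 to 1245 (adjusted p = 0.0664). The ER chaperone gene Hspa5 lay between 6562 and 9689 in T-D and between 15240 and 16120 in PT-D (log2 fold change 0.87, adjusted p = 0.0683). ER stress genes as a list had a median of 0.18, with 11 of 16 above 0, or 0.37 without T-D replicate 4. In these chaperones the groups were separated while the fold stayed near or under 2.

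The list of 18 NRF2 targets had a median log2 fold change of 0.48, with 12 above 0, or 0.27 without T-D replicate 1. Gclc, the catalytic subunit of glutathione synthesis, had 3308 to 4494 normalized counts in T-D and 5359, 9598 and 12540 in PT-D (log2 fold change 1.19, adjusted p = 0.0683), and Txnrd1, thioredoxin reductase 1, had 3424 to 4337 and 4866 to 9314 (adjusted p = 0.0716). The autophagy adaptor gene Sqstm1 had 11720 to 18580 and 24030 to 42060 (adjusted p = 0.0686). The PT-D library of suffix a was the lowest of the 3 for Gclc and Txnrd1. In contrast, 15 of 16 antioxidant enzyme genes had a value below 0, with a median of -0.70. Against 10.6% of all genes, 8 of them had every PT-D library below every T-D library. The peroxiredoxin genes Prdx1 (18210 to 36660 in T-D, 11340 to 15670 in PT-D) and Prdx5 (28930 to 55500 and 19300 to 21970) were among these, with adjusted p-values of 0.0958 and 0.0909. Gpx1, glutathione peroxidase 1, had 365.8, 764.1, 252.2 and 234.3 in T-D and 152.3, 140.7 and 232.7 in PT-D (adjusted p = 0.109). Of the other heme and iron genes, the ferritin light chain gene Ftl1 (6663 to 13410 in T-D, 4641 to 6139 in PT-D, adjusted p = 0.0802) and the transferrin receptor gene Tfrc (552.2 to 1062 and 306.9 to 557.3, adjusted p = 0.084) had lower values in PT-D, and the list of 19 had a median of -0.17 with Hmox1 as its only DEG (-0.06 without T-D replicate 3, -0.33 without PT-D replicate 2).

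**Figure D2:**
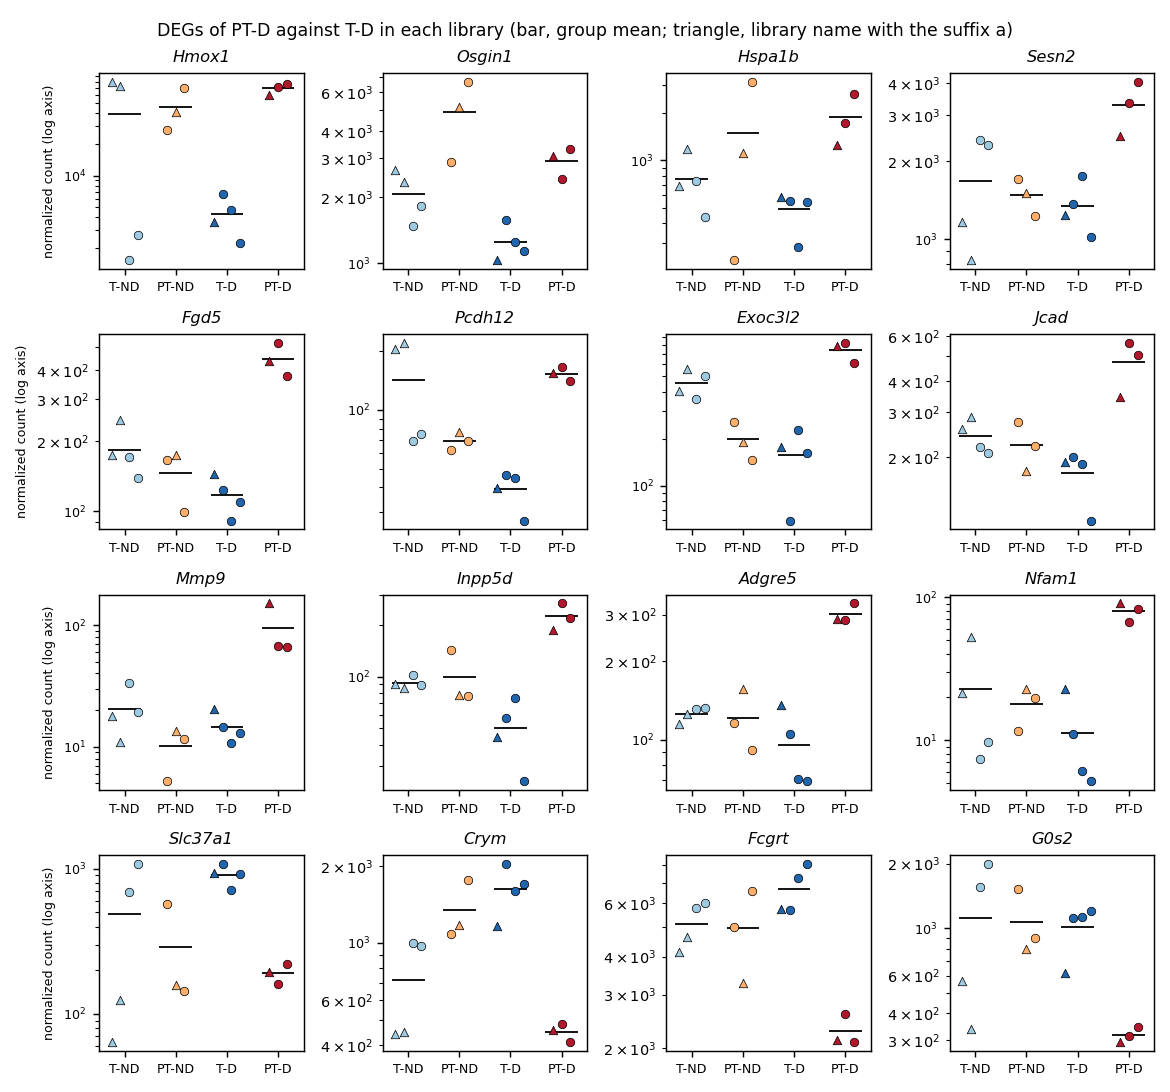
Normalized counts of 16 DEGs in each library (log axis), by group, with the group mean as a bar and libraries whose name has the suffix a as triangles. In all 16 panels the PT-D libraries (red) lie apart from the T-D libraries (dark blue). The T-ND libraries split by the suffix for Hmox1, Slc37a1 and G0s2. They also do so, among others, for Osgin1, Sesn2, Pcdh12, Nfam1, Crym and Fcgrt, less widely for some.

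A set of 5 genes known for their expression in endothelial cells, grouped after their values were seen, was among the higher DEGs, with log2 fold changes from 1.45 to 2.85. Fgd5, an exchange factor for the GTPase Cdc42 in vessels, had 143.8, 123.1, 91.5 and 109.4 normalized counts in T-D and 436, 522.1 and 375.9 in PT-D (3.80-fold, adjusted p = 0.00399). Exoc3l2, linked to VEGF receptor trafficking, had 176.7, 59.7, 225.6 and 162.2 in T-D and 785.3, 820.8 and 608.6 in PT-D (4.69-fold, adjusted p = 0.0235). The smallest PT-D value of either gene was more than the largest T-D value by a wide margin. Hspa12b, an HSP70 relative of endothelium, had 26.1, 26.8, 10.7 and 12.9 in T-D and 93.9, 141.4 and 177.5 in PT-D (7.21-fold, adjusted p = 0.0163). Pcdh12, an endothelial protocadherin, had 39.6, 46.3, 45.0 and 27.03 in T-D and 155, 165.5 and 139.9 in PT-D (3.86-fold, adjusted p = 0.0201). Jcad, a protein of endothelial junctions, ranged from 112 to 199.9 in T-D and from 346.6 to 566.5 in PT-D (2.72-fold, adjusted p = 0.0377). For 3 of them, Pcdh12, Exoc3l2 and Jcad, all 4 T-ND libraries were also above every T-D library. Exoc3l2 had 358.3 to 554.4 normalized counts in T-ND and 145.4 to 256.6 in PT-ND, so that its preterm difference in nondiabetic mice had the opposite sign (log2 fold change −1.20, standard error 0.23, adjusted p = 0.125).

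Of 16 endothelial markers, 15 had a log2 fold change above 0 with a median of 0.61, and in 10 every PT-D library was above every T-D library. None was a DEG by edgeR's test, 9 had an unadjusted p under 0.05, and DESeq2 called 6. Over all genes 12.4% were separated, 11.4% had such a p and DESeq2 called 1.53%, each in the higher direction. Sox17, a transcription factor of arterial endothelium, had 37.8 to 69.1 normalized counts in T-D and 128 to 194.3 in PT-D (log2 fold change 1.49, adjusted p = 0.0664). Cdh5, the cadherin of endothelial junctions, had 408 to 1053 and 1525 to 1845 (adjusted p = 0.0775). Egfl7, a factor secreted by endothelium, had 193.6 to 375.7 and 531.8 to 1287 (adjusted p = 0.0716), and the VEGF receptor gene Flt1 had 333.4 to 949 and 1160 to 2006 (adjusted p = 0.0866). The markers summed to 14210, 14220, 13630 and 7602 normalized counts in T-D and to 21520, 18120 and 16090 in PT-D. T-D replicate 4 was thus the lowest by far, and without it the median of the list was 0.43, with 10 markers separated, where 14.1% of all genes were separated in that direction. In whole-kidney RNA, more cells of a type and more RNA per cell cannot be told apart.

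Lists of vascular and glomerular signals had values of the same sign. Of 15 VEGF and angiopoietin genes 12 were above 0 (median 0.49, or 0.24 without PT-D replicate 1), among them Flt4, which encodes VEGF receptor 3 (101.7 to 268.3 normalized counts in T-D and 495.8 to 778 in PT-D, adjusted p = 0.0575), the coreceptor gene Nrp1 (187.9 to 545.9 and 724.2 to 1175, adjusted p = 0.0664) and Nos3, the endothelial nitric oxide synthase (43.8 to 92.9 and 139.1 to 159.5, adjusted p = 0.0754). Of 19 semaphorins and plexins 15 were above 0 (median 0.60). Sema3e, a repulsive guidance ligand, had 39.9 to 83.1 in T-D and 113.6 to 135.9 in PT-D (adjusted p = 0.0899). Podocyte markers were above 0 in 9 of 10 (median 0.74), with no overlap in 7, including Synpo, the actin-binding synaptopodin (320.5 to 1094 and 1300 to 2233, adjusted p = 0.101), and Wt1, the podocyte transcription factor (127.4 to 320.8 and 361.5 to 436.3, adjusted p = 0.108). The podocyte median without T-D replicate 4 was 0.56, and over all genes 12.4% were separated in the higher direction. In pericyte, mesangial and smooth muscle markers 9 of 10 were above 0, and Pdgfrb, the PDGF receptor of these cells, had 200.8 to 659.3 and 740.6 to 1269 (adjusted p = 0.0838).

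Among Notch genes the DEG was Neurl1b, which encodes a ubiquitin ligase for Notch ligands. It had 140.4, 145, 137.2 and 169.9 normalized counts in T-D and 342.9, 300.9 and 362.3 in PT-D and rose 2.26-fold (adjusted p = 0.0377). Of 11 Notch receptors and ligands, 10 had a value above 0 with a median of 1.15, 7 were separated between the groups, DESeq2 called 5 and edgeR called 0 (8 with an unadjusted p under 0.05 and a higher value). Over all genes 12.4% were separated, DESeq2 called 1.53% and 11.4% had such a p, each in the higher direction. The receptors Notch1 (72.1 to 303.4 in T-D and 425.1 to 513.5 in PT-D), Notch3 (50.2 to 231 and 303.2 to 415) and Notch4 (81.1 to 335.2 and 574.2 to 595.6) had adjusted p-values of 0.103, 0.118 and 0.0975. For each receptor T-D replicate 4 was the lowest library, and without it the median of the list was 0.87. The ligand gene Jag1 had 167.3 to 264.4 in T-D and 306.2 to 365.5 in PT-D (adjusted p = 0.0901). In nondiabetic mice the list had a median of -0.42 for preterm over term. Notch1, Notch3 and Notch4 are genes that the study picked from these libraries, so their direction here is not independent evidence. The study also reported higher Notch1, Hmox1 and Nos3 in PT-D than in T-D kidneys by qRT-PCR.

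Matrix genes also had values above 0. All 20 collagens and matrix genes did, with a median of 0.65, and 10 of 11 laminins, with a median of 0.72. Col4a1, a chain of basement membrane collagen, had 3641 to 7096 normalized counts in T-D and 8849 to 11990 in PT-D (log2 fold change 0.95, adjusted p = 0.0716), and Lamb1, a laminin chain, had 1106 to 1450 and 1854 to 2460 (adjusted p = 0.078). No collagen or laminin was a DEG by edgeR, 8 and 6 had an unadjusted p under 0.05, and DESeq2 called 0 and 1. Over all genes 11.4% had such a p and DESeq2 called 1.53%, each in the higher direction. The DEG Serpine2, which encodes the protease inhibitor nexin 1, rose 2.23-fold (496 to 661.6 and 1108 to 1703, adjusted p = 0.0377). Without PT-D replicate 2 the matrix median was 0.39. Without T-D replicate 4, the matrix median was 0.41 and that of the laminins 0.63. Grem1, which encodes a BMP antagonist, had 34.1 to 82.7 in T-D and 366.6, 141.4 and 72.8 in PT-D, with overlap of the groups (adjusted p = 0.0851).

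A set of 5 higher DEGs is known from leukocytes or antibody-producing cells, a grouping made after their values were seen. Mmp9, the gelatinase of neutrophil granules, had 20.4, 14.6, 10.7 and 12.9 normalized counts in T-D and 150.5, 67.0 and 66.4 in PT-D (6.46-fold, adjusted p = 0.031). Inpp5d, the SHIP1 phosphatase of blood cells, had 44.2, 57.3, 75.5 and 24.5 in T-D and 187, 267.8 and 219.1 in PT-D (4.40-fold, adjusted p = 0.031). Adgre5, the leukocyte adhesion receptor CD97, ranged from 69.5 to 135.9 and from 286.6 to 331.1 (3.17-fold, adjusted p = 0.031). Nfam1, an activating receptor of immune cells, ranged from 5.15 to 22.7 and from 67.0 to 90.3 (7.12-fold, adjusted p = 0.0425). No value of these 4 genes overlapped between the groups, at low counts in T-D. Ighg1, the constant region of IgG1 heavy chains, had 4.53, 2.44, 0.762 and 6.44 in T-D and 379.4, 32.4 and 225.5 in PT-D (adjusted p = 0.0141), and 3.14 to 159.8 in T-ND and 32.3 to 273.3 in PT-ND. It varied widely within PT-D and within T-ND, and its relatives Ighg2b (4.87 to 24.4 in T-D, 15.8 to 376.7 in PT-D) and Ighg2c (0 to 18.1 and 0.752 to 472.4) overlapped between the groups.

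All 13 neutrophil markers tested had a value above 0, with a median of 2.09. Without PT-D replicate 1 the median was 1.44, with 12 above 0. Of the 13 markers 6 were separated, against 12.4% of all genes in the higher direction. Csf3r, the receptor for granulocyte colony-stimulating factor, had 45.0 to 93.8 normalized counts in T-D and 139.9 to 422.3 in PT-D (adjusted p = 0.0664). Mmp8, the neutrophil collagenase, had 14.5 to 52.4 and 92.8 to 172.4 (adjusted p = 0.0685), and Trem1, an activating receptor of myeloid cells, had 1.22 to 7.72 and 11.3 to 36.5 (adjusted p = 0.0899). Their sum was 434.4 to 1503 in T-D and 5862, 1748 and 1866 in PT-D, so that PT-D replicate 1 stood well above the other PT-D libraries. Macrophage and monocyte markers as a list had a median of 0.06, with 9 of 15 above 0, which became 0.25 with 12 above 0 without T-D replicate 4 and -0.14 without PT-D replicate 2. Within it Cx3cr1, the fractalkine receptor, had 3.40, 11.0, 3.05 and 2.57 in T-D and 27.4, 51.9 and 50.4 in PT-D (adjusted p = 0.058), and Siglec1, a macrophage lectin, had 3.81 to 11.3 and 19.2 to 60.2 (adjusted p = 0.0686). T and NK cell markers had a median of 0.06, or -0.17 without PT-D replicate 1. Of 23 chemokines 18 were below 0, with a median of -0.42, including Ccl2, the monocyte attractant (937.4 to 2190 in T-D, 283.6 to 873.7 in PT-D, adjusted p = 0.082), and Ccl4 (154.8 to 291 and 21.8 to 113.1, adjusted p = 0.0802). The cytokine signal inhibitor gene Socs1 had 300.1, 368, 230.1 and 474.9 in T-D and 132.2, 53.4 and 132 in PT-D (adjusted p = 0.0664), and Bcl2a1d, a survival factor of leukocytes, had 133.6 to 465.9 and 113.6 to 117.6 (adjusted p = 0.0996).

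Of the remaining protein-coding higher DEGs, Trim12c, a ubiquitin ligase of the TRIM5 family, had 271.8, 438.7, 513.6 and 276.7 normalized counts in T-D and 1357, 905 and 1248 in PT-D (3.10-fold, adjusted p = 0.0238). Its transcript is 94.6% identical to Trim5, so reads of close relatives may be mixed. Ripply3, a transcriptional repressor, had 30.6, 23.2, 26.7 and 30.9 in T-D and 124, 88.8 and 118.4 in PT-D (3.94-fold, adjusted p = 0.0263). In both genes the PT-ND libraries were low again, at 162.9 to 211.7 for Trim12c and 23.99 to 37.3 for Ripply3. T-ND libraries had 281.6 to 597.1 of Trim12c. For Ripply3, T-ND replicates 1 and 2 had 101 and 134.3, near the PT-D level, and T-ND replicates 3 and 4 had 30.4 and 66.7. Of these 4 libraries 3 were above every T-D library. Zfc3h1, a subunit of a nuclear RNA decay adaptor (2.24-fold), the class IIa deacetylase gene Hdac7 (2.34-fold) and the formin gene Fhod1 (2.41-fold) had adjusted p-values of 0.031, 0.0377 and 0.0377. Zfp33b, a zinc finger gene, was close to absent in T-D, with 1 read over the 4 libraries and 208 reads over the 3 PT-D libraries, a ratio of 215 after scaling (95% exact interval 38.1 to 8520, counting error only). It had 40.1 to 65.6 normalized counts in PT-D, 44.9 to 77.3 in PT-ND and 3.23 to 63.0 in T-ND.

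Lower DEGs included transporters and regulators of metabolism. Slc37a1, a glucose 6-phosphate transporter of the endoplasmic reticulum, had 930.9, 1077, 719.4 and 921.6 normalized counts in T-D and 193.4, 161.7 and 220.7 in PT-D, and fell 4.77-fold (log2 fold change −2.25, adjusted p = 0.000383). G0s2, an inhibitor of the triglyceride lipase ATGL, had 618.3, 1109, 1126 and 1198 in T-D and 294.6, 314.5 and 344.7 in PT-D (3.20-fold lower, adjusted p = 0.0147). Both had narrow PT-D ranges, and both were divided within T-ND, where replicates 1 and 2 had 64.2 and 125.1 of Slc37a1 and replicates 3 and 4 had 691.4 and 1076. Pde9a, a cGMP phosphodiesterase, lies 35390 bases from Slc37a1 on chromosome 17. It had 609.2, 1018, 763.6 and 734.9 in T-D and 340.2, 275.4 and 389.5 in PT-D (2.34-fold lower, adjusted p = 0.0377), without the division within T-ND (428.9 to 591.2).

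Crym, which encodes a thyroid hormone-binding protein, had 1162, 2033, 1597 and 1702 normalized counts in T-D and 458.8, 483.7 and 411 in PT-D (3.61-fold lower, adjusted p = 0.00346). Fcgrt, the neonatal Fc receptor that recycles albumin and IgG, had 5750, 5710, 7291 and 8081 in T-D and 2126, 2592 and 2094 in PT-D (2.96-fold lower, adjusted p = 0.0093). PT-ND libraries kept 1085 to 1766 of Crym and 3278 to 6596 of Fcgrt, above every PT-D library. T-ND replicates 1 and 2 had 442 and 448.5 of Crym, within the PT-D range, and T-ND replicates 3 and 4 had 1002 and 971.7. All 4 T-ND libraries were below every T-D library for Crym. Fcgrt had 4146 to 6014 in T-ND. Slc45a3, a sugar transporter family member, had 1406, 1919, 1532 and 1707 in T-D and 840.9, 695.9 and 734.9 in PT-D (2.17-fold lower, adjusted p = 0.0263). Cebpd, a transcription factor of acute stress, had 2303, 3165, 1834 and 2690 in T-D and 1115, 1097 and 1048 in PT-D (2.30-fold lower, adjusted p = 0.0377). Its preterm difference in nondiabetic mice was positive (501.4 to 1395 in T-ND and 1712 to 2882 in PT-ND, log2 fold change 1.43, standard error 0.30, adjusted p = 0.162). Apobec2, a deaminase relative of muscle, had 78.1, 87.7, 81.5 and 148 in T-D and 10.03, 9.03 and 2.40 in PT-D (13.7-fold lower, adjusted p = 0.0138). Striated muscle markers summed to 240.1 to 559.9 in T-D and 49.3 to 159.9 in PT-D, with 8 of 13 below 0, and the part of muscle RNA in the value of Apobec2 was not tested.

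For 7 DEGs another gene's transcript was at least 95% identical over at least 50% of their length, and the counts of these are uncertain because near-identical sequences can trade reads. They were Hspa1b, Gm42047, Gm21399, Rpl17-ps5, Gm46209, Rps19-ps6 and Rps2-ps10. Gm21399 (chromosome 8, 129979479 to 129980075), a transcribed processed pseudogene, is 98.3% identical to a transcript of Prdx1, which encodes peroxiredoxin 1, with 10 mismatches in 597 bases, and lies within the long noncoding RNA gene Gm64945 on the same strand. A stretch of both is shown because these letters are what separates their reads. Capitals mark the 4 mismatches in these 160 bases, the Gm21399 stretch is chr8:129979508-129979667 on the plus strand of GRCm39, and the Prdx1 stretch is from its GENCODE M39 transcript.
Gm21399: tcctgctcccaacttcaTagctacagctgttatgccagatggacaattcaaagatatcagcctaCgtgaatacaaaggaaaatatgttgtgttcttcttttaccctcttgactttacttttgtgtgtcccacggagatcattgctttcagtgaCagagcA
Prdx1: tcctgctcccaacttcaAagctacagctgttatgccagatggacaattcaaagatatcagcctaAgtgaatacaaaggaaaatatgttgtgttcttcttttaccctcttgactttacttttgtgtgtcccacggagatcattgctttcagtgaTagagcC
Gm21399 had 26.1, 26.8, 14.5 and 42.5 normalized counts in T-D and 488.9, 472.5 and 629.4 in PT-D, a 19.6-fold difference (adjusted p = 0.000111). It stayed between 13.6 and 36.8 in all 7 nondiabetic libraries. The pseudogene thus took 0.062% to 0.143% of the reads on it and Prdx1 together in T-D, and 3.58%, 2.93% and 5.26% in PT-D.

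The other copies showed an on-or-off pattern between mice. Rpl17-ps5, 99.6% identical to the ribosomal protein gene Rpl17, took 0.0415% to 0.0805% of the reads on the pair in T-D and 17.6%, 7.4% and 5.21% in PT-D. Gm46209, 98.7% identical to Rpl17, took at most 0.0171% in T-D and 0.595% to 1.25% in PT-D. Both copies were also on in the same nondiabetic libraries, T-ND replicates 1 and 2 and PT-ND replicates 1 and 3, where Rpl17-ps5 took 6.28% to 7.98%. Rps2-ps10, 99.4% identical to Rps2, took 20.8% and 21.3% in PT-D replicates 2 and 3, 36% in T-ND replicate 2 and at most 0.508% elsewhere, PT-D replicate 1 included. Rps19-ps6, 98.9% identical to Rps19, took 4.78%, 3.78%, 3.32% and 0.825% in T-D and 0.559% to 0.885% in PT-D, with 6.5% and 3.65% in T-ND replicates 2 and 3. Gm57147 (chromosome 1, 60744380 to 60744497), a 118-base RNA that is 92.4% identical to a stretch of a transcript of Eif4a1, a translation initiation factor, took 3.65% to 5.68% in every T-D library and at most 0.141% in PT-D. Its level was 289.6 to 348.8 normalized counts in T-D and 2.26 to 8.21 in PT-D (62.2-fold lower, adjusted p = 4.4e-05). Of the nondiabetic libraries T-ND replicate 4 alone had the T-D level, with 279.5, and the other 6 had 3.39 to 11.5. The parent genes differed far less than the copies, with Eif4a1 at 5790 to 7634 in T-D and 5809 to 6173 in PT-D.

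**Figure D3:**
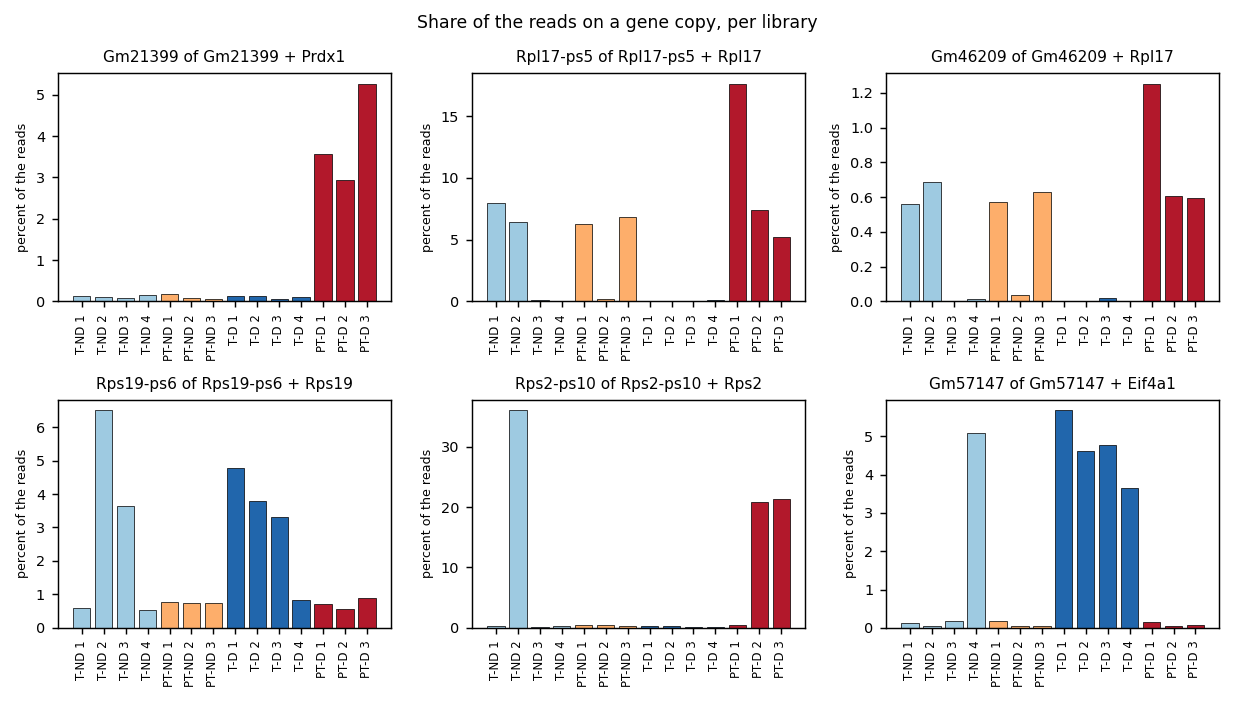
Bars give, for each of the 14 libraries, the percent of the reads on a gene copy among the reads on the copy and its parent gene (y axes differ). Gm21399 is above 2.9% in the 3 PT-D libraries alone, while the other 5 copies also change between libraries within a nondiabetic group.

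The 4 long noncoding RNAs among the higher DEGs were Gm56555, Gm43305, 4931408D14Rik and Gm42047. Gm56555 had 112.1, 115.8, 118.1 and 34.8 normalized counts in T-D and 1101, 873.4 and 427.8 in PT-D (8.36-fold, adjusted p = 0.0102), and it overlaps Slc7a15 on the other strand, from which unstranded reads cannot be told apart. Gm43305 had 15.9, 40.2, 36.6 and 7.72 in T-D and 860.1, 302.4 and 246.3 in PT-D (18.4-fold, adjusted p = 0.0102), with 32.3 to 83.2 in the nondiabetic libraries. 4931408D14Rik had 34.0, 41.4, 47.3 and 33.5 in T-D and 114, 165.5 and 215.9 in PT-D (4.18-fold, adjusted p = 0.0201). All 3 were separated between the diabetic groups, and only Gm43305 was also higher in every PT-D library than in every nondiabetic library. Gm42047 had no read in any T-D library and 2040, 1131 and 36.8 normalized counts in PT-D, at least 1300-fold higher when 3 reads over the T-D group are taken as the floor. It had 58.2 in T-ND replicate 1 and 0 in the other nondiabetic libraries, and its transcript is 98.4% identical to Gm48362 over 64.2% of its length.

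Rn18s-rs5, a copy of the 18S ribosomal RNA, was a lower DEG in libraries made from poly-A RNA. It had 145300, 184600, 282200 and 679500 normalized counts in T-D and 36840, 47340 and 43080 in PT-D (7.65-fold lower, adjusted p = 0.0377). This is 0.734% to 2.82% of the counts in T-D, highest in T-D replicate 4, and 0.192% to 0.24% in PT-D. The 7 nondiabetic libraries had 0.517% to 1.32%. The share of ribosomal RNA in such libraries depends on the poly-A selection as well as on the tissue, and these cannot be told apart here.

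Nuclear genes of mitochondria and ribosomes had lower values in PT-D almost throughout, and 2 of them were DEGs. Ndufb8, a complex I subunit, had 2800, 3507, 3092 and 4711 normalized counts in T-D and 1376, 1369 and 1599 in PT-D (2.45-fold lower, adjusted p = 0.031). Mrpl14, a protein of the mitochondrial ribosome, ranged from 628.5 to 888.4 and from 340.7 to 436.3 (2.06-fold lower, adjusted p = 0.0461). Of 37 complex I subunits 36 were below 0, with a median of -0.81 and 35 separated between the groups. All 40 subunits of complexes II to V were below 0 (median -0.79, 38 separated), as were all 45 mitochondrial ribosomal proteins (median -0.75, 36 separated) and 58 of 60 cytosolic ribosomal proteins (median -0.75, 55 separated). DESeq2 called 3, 3, 5 and 2 of these as lower, where it called 1.44% of all genes and 10.6% of all genes were separated in this direction. Ndufb9 had 1453, 1862, 1503 and 2519 in T-D and 1121, 908.1 and 739.7 in PT-D (adjusted p = 0.0716), and Cox7c, a subunit of cytochrome oxidase, had 7988 to 12740 and 4687 to 5877 (adjusted p = 0.0689). Ndufa13 had 4059 to 8284 and 2473 to 3407 (adjusted p = 0.0834). The 13 mitochondrially encoded mRNAs had a median of 0.25, with 9 above 0. Without PT-D replicate 1 the median was -0.17 and 7 of the 13 were below 0. It was -0.11 in the 5 libraries without the suffix. Among these mRNAs mt-Nd1 had 302800 to 414700 in T-D and 251400 to 334200 in PT-D (adjusted p = 0.356). In nondiabetic mice the same 4 nuclear lists had medians between 0.15 and 0.25 for preterm over term.

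**Figure D4:**
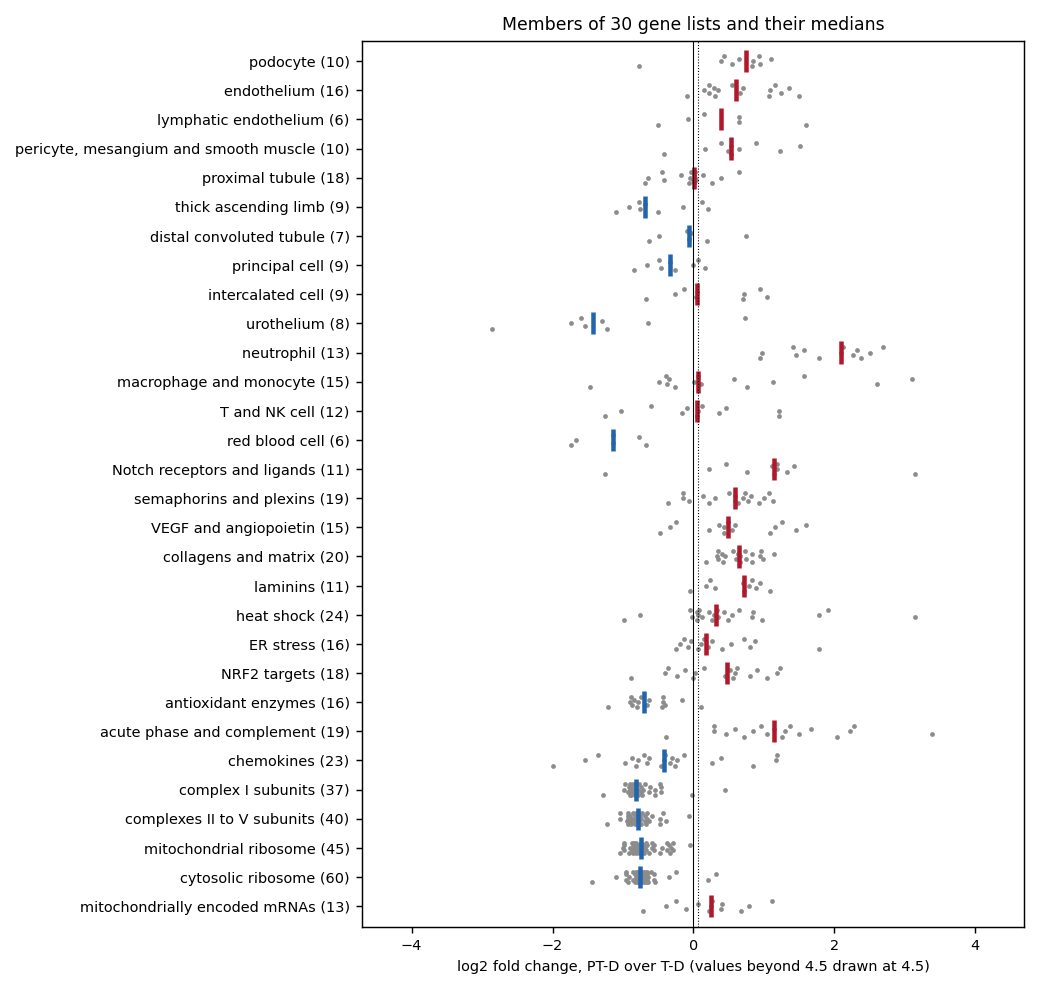
Each grey point is a gene of 1 of 30 lists at its log2 fold change of PT-D over T-D (x axis), with the number tested after the list's name, and the thick bar is the list's median. The dotted line is the median of all genes (0.06). The 4 nuclear mitochondrial and ribosomal lists form tight clusters near −0.8, while neutrophil, acute phase and Notch genes have medians above 1.

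These short genes share a trend that ran through the whole comparison. Genes averaging 50 or more normalized counts were divided into 5 bins of equal number by exonic length, and the median log2 fold change was -0.39 in the shortest bin and -0.09, 0.05, 0.14 and 0.26 in the next 4. The trend was smaller without T-D replicate 4, from -0.28 to 0.19, and had the opposite sign in nondiabetic mice, from 0.13 in the shortest to -0.07 in the longest bin. After a correction for length in each library, the medians were -0.59 for complex I, -0.52 for complexes II to V, -0.62 for the mitochondrial ribosome and -0.50 for the cytosolic ribosome, and 36 of 37, 40 of 40, 45 of 45 and 58 of 60 genes stayed below 0. Podocyte, endothelial and Notch medians were 0.75, 0.58 and 1.07 after the same correction. T-D replicate 4 had the highest mean log2 level of complex I among the 7 libraries (12.15, against 11.41 to 11.67 in the other T-D and 10.82 to 11.19 in PT-D), and the highest ribosomal RNA, and without it the complex I median was -0.60 with 35 genes separated, and the medians of complexes II to V, the mitochondrial ribosome and the cytosolic ribosome were -0.58, -0.54 and -0.49.

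**Figure D5:**
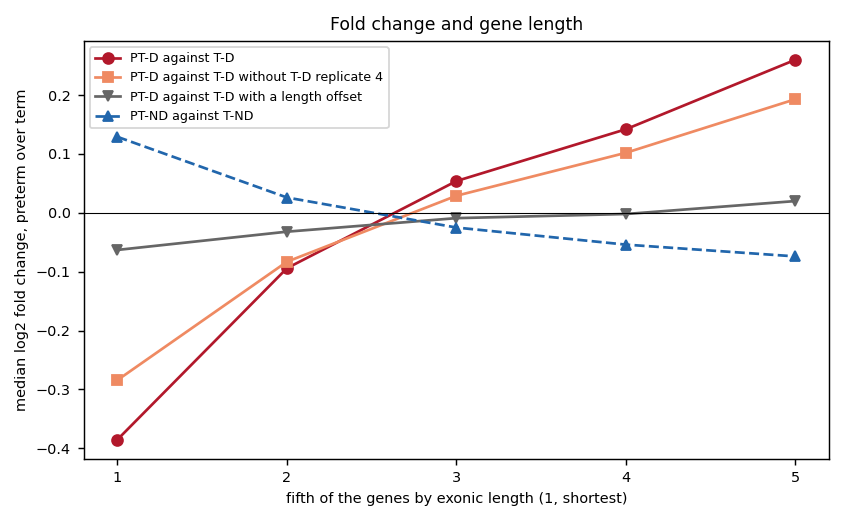
Median log2 fold change (y axis) of genes in 5 bins by exonic length (x axis), for PT-D against T-D with and without T-D replicate 4 and with a length offset, and for PT-ND against T-ND. The diabetic lines climb from -0.39 (or -0.28 without T-D replicate 4) to 0.26 (0.19), the nondiabetic line falls from 0.13 to -0.07, and the line with the offset stays within 0.063 of 0.

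Medians of the nephron segment lists depended on single libraries. Proximal tubule markers had a median of 0.005, with 9 above and 9 below 0. In the lower direction 3 of 18 were separated, against 10.6% of all genes. Among them was the amino acid transporter gene Slc7a7 (7120 to 9356 normalized counts in T-D, 4839 to 6010 in PT-D, adjusted p = 0.0899). In the higher direction 1 was separated, against 12.4% of all genes. It was Slc5a12 (3076 to 7241 in T-D, 8253 to 9222 in PT-D, adjusted p = 0.156). Without T-D replicate 4 the proximal tubule median was -0.15, with 15 of 18 below 0. Thick ascending limb markers were below 0 in 7 of 9 (median -0.69), with Cldn10 at 2274 to 5103 and 1201 to 1643 (adjusted p = 0.0838), and the median without T-D replicate 4 was -0.28. Principal cell markers had a median of -0.33, which ranged from -0.69 without PT-D replicate 1 to -0.15 without PT-D replicate 2 and was -0.43 without T-D replicate 4. Distal convoluted tubule and intercalated cell markers had medians of -0.07 and 0.05, whose sign changed with the library left out (-0.39 and -0.08 without PT-D replicate 1, 0.15 and 0.30 without PT-D replicate 3). Urothelial markers, which come from the lining of the renal pelvis, were below 0 in 7 of 8 (median -1.42, or -2.14 without PT-D replicate 2), and Upk3a, a uroplakin, had 388.4, 271.7, 253.8 and 308.9 in T-D and 8.21, 88.0 and 29.6 in PT-D (adjusted p = 0.0664). The sum of the urothelial markers was 677.5 to 1408 in T-D and 104 to 585.3 in PT-D. Red blood cell genes were below 0 in all 6 (median -1.15, or -0.60 without T-D replicate 4), with sums from 2076 to 20370 in T-D and from 2409 to 5733 in PT-D. The adrenal marker sum was 1922 to 3321 and 1261 to 1565. Of these markers Star had means of 64.31 in T-D and 64.59 in PT-D, and Cyp11a1 and Cyp21a1 had means of at most 1.70. The sum therefore rests on other members of the list. Adipocyte markers were high in a single library of each group, with sums of 9973 in T-D replicate 1 and 9094 in PT-D replicate 2 against 1563 to 2551 in the other 5 libraries, so that their median of 0.05 became 3.99 without the former and -4.26 without the latter. The part of pelvis, blood and attached tissue in the DEGs was not tested.

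The injury marker Havcr1, which encodes KIM-1 of damaged proximal tubule, had 81.5, 102.4, 39.6 and 202.1 normalized counts in T-D and 97.6, 1599 and 1312 in PT-D. PT-D replicate 1 lay within the T-D range and the other 2 PT-D libraries were far above it (log2 fold change 3.24, adjusted p = 0.0687 from edgeR and 0.0152 from DESeq2). Melk, a mitotic kinase, divided in the same way, with 5.66 to 14.6 in T-D and 10.03, 82.0 and 90.4 in PT-D (adjusted p = 0.0799). The 16 tubular injury genes as a list had a median of 0.05, or -0.08 without T-D replicate 1 and 0.24 without T-D replicate 2. Acute phase and complement genes were above 0 in 18 of 19 (median 1.14), with Pigr, the receptor that carries antibodies across epithelium, at 1353 to 2323 in T-D and 3148 to 4846 in PT-D (adjusted p = 0.0664) and the complement gene C3 overlapping (857.2 to 3597 and 2622 to 8759). Apoc3, an apolipoprotein, overlapped as well (120 to 271.6 and 43.8 to 139.9, adjusted p = 0.125). Ren1, which encodes renin, had 1682 to 3000 in T-D and 2339 to 4421 in PT-D (log2 fold change 0.39, adjusted p = 0.382).

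The 43 DEGs were then read in the nondiabetic mice, which the test had not used. Between PT-ND and T-ND 18 of 22254 genes passed the same thresholds (0.0809%), and 0 of the 43 were among them by edgeR's test. The preterm difference had the same sign in 15 of the 43, which were 9 of the 30 higher and 6 of the 13 lower DEGs. Of these 15 only Osgin1 also had separated groups (1484 to 2662 normalized counts in T-ND, 2888 to 6668 in PT-ND), where 11% of all genes were separated in either direction. The nondiabetic groups were separated in the opposite direction for 4931408D14Rik, Exoc3l2, Trim12c, Hdac7, Fhod1, Crym and Cebpd. The median log2 fold change of the 30 higher DEGs was 2.10 in diabetic and -0.29 in nondiabetic mice. A test of the difference between the 2 preterm effects over all 14 libraries gave an adjusted p under 0.05 for 29 of the 43 and for 6.23% of all 22339 genes, but the diabetic libraries of this test also chose the genes, so the count is not independent. In 11 of the 43 genes all 4 T-ND libraries lay beyond every T-D library on the side of PT-D, 6 of them higher DEGs, where 5.49% of all genes had this pattern, and in 3 (Gm21399, Adgre5 and Serpine2) no T-ND library did. T-ND replicates 1 and 2 were on the PT-D side in 31 of the 43 each, and replicates 3 and 4 in 23 each, where 24.9%, 25.3%, 30.7% and 26.3% of all genes were. The T-D libraries that chose the genes are also the ones against which these positions were read, so the counts are not independent of the choice.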

How the data were processed

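Total RNA of 1 whole kidney per mouse was poly-T selected and made into unstranded libraries. The authors aligned trimmed reads with STAR to GRCm39 and deposited read counts per gene for each library, of which the unstranded column was used as whole-number counts. No normalization had been applied. Rows for unmapped, multimapping, ambiguous and featureless reads stayed out of library sizes and tests, and the last 2 came to 6.86% to 8.09% and 2.39% to 5.42% of each library. Symbols and positions come from GENCODE M39. Genes with a total above 10 over the 14 libraries were kept, as in the study. The 3 PT-D and 4 T-D libraries were compared with edgeR 4.0.16 in R 4.3.3 (quasi-likelihood F test, TMM factors, Benjamini-Hochberg adjustment, two-sided), and DESeq2 1.42.0, the tool the authors used, was an alternative. PT-ND and T-ND were compared the same way, and the interaction was tested over all 14 libraries. Scripts were tested on simulated data. Copies were sought with BLAST 2.17.0.

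Every DEG was named. Values in every library were given for up to 16 higher and 12 lower DEGs with the smallest adjusted p among those averaging 50 or more normalized counts, and of each list up to 4 members with the smallest p and a mean of at least 20 could be named, besides genes the study names. The members, lists and tests were chosen with earlier results of these data known, so they support nothing independently. Each library is a separate mouse. The spread between mice of a group sets the precision of the edgeR tests, while exact intervals on ratios of reads cover counting error only.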

Additional observations from a re-analysis of the deposited data

Results flagged for a closer look

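Values far from the others in their group were sought with Dixon's test among 151 groups of 4 libraries, and 15 (9.93%) were found, 7 of them in T-D replicate 4, where chance alone gives some at this level. In T-D replicate 4 these were the normalized counts of Gm56555 (34.8), Jcad (112), Apobec2 (148), the mitochondrial ribosomal protein gene Mrpl18 (1496), the histone gene H4c3 (256.1), Cldn10 (5103) and the fatty acid binding protein gene Fabp3 (4241). T-D replicate 3 stood apart in Zfp33b (0.762), Gm46209 (1.52), Hspa1b (282) and its total count (28673176). T-D replicate 2 did so in mt-Nd1 (302800), Csf3r (93.8) and Cx3cr1 (11.0), and T-D replicate 1 in G0s2 (618.3). The flags of Zfp33b and Gm46209 rest on 1 and 2 reads against 0 in the other T-D libraries. Dixon's ratio is then 1 whatever the number of reads, so these 2 flags say nothing about the library.

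The preterm effect differed between diabetic and nondiabetic mice at an adjusted p under 0.05 (edgeR's interaction test) for 29 of the 43 DEGs and for 6.23% of all genes tested, and the diabetic libraries in this test had also chosen the DEGs. As log2 differences, diabetic minus nondiabetic, the endothelial genes had 2.25 for Fgd5, 3.15 for Hspa12b, 2.98 for Pcdh12, 3.43 for Exoc3l2 and 1.57 for Jcad. The leukocyte genes had 3.70 for Mmp9, 2.02 for Inpp5d, 1.73 for Adgre5 and 3.20 for Nfam1. Other higher protein-coding DEGs had 6.17 for Zfp33b, 2.73 for Trim12c, 3.41 for Ripply3, 1.73 for Zfc3h1, 1.86 for Neurl1b, 2.03 for Hdac7 and 1.85 for Fhod1. Noncoding genes and copies had 4.40 for Gm21399, 4.48 for Gm43305, 3.73 for 4931408D14Rik and 9.86 for Rps2-ps10, and the 19.84 fitted for Gm42047 depends on the prior count because most libraries had no read. The value of Rps2-ps10 rests in part on T-ND replicate 2, with 3522 normalized counts against 20.95 to 62.35 in the other T-ND libraries. PT-D replicate 1 had 51.07 of it, near the T-D level. Lower DEGs had -2.75 for Crym, -1.51 for Fcgrt, -1.29 for Slc45a3, -1.41 for Ndufb8, -2.63 for Cebpd, -3.31 for Rn18s-rs5, -1.44 for Pde9a and -1.13 for Mrpl14.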

How the results depend on the processing

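The number of DEGs depended on the processing, while all 43 kept their direction under every alternative that tested them. DESeq2 called 661, edgeR with robust estimation 115, the filter of filterByExpr 22, no filter on low counts 657, a fit of all 14 libraries 396 and the library-name suffix as a covariate 23. With a replicate block the count was 83, but same-numbered libraries correlated at -0.20, -0.16 and -0.18, so the numbers did not pair the mice. Leaving out 1 library at a time gave 26 (without T-D replicate 3) to 105 (without T-D replicate 4), and 66 without T-D replicate 2. The 5 libraries without the suffix, an alternative chosen after seeing the data, gave 17. Higher genes were 69.8% of the calls, 51.6% with DESeq2, 57.1% with no filter, 55.3% with all 14 libraries and 52.6% without T-D replicate 1. Scaling by total counts alone moved the median of all genes to 0.22 and gave 40 DEGs. A set of 8 DEGs was called in all 24 settings, and 15 without each library. The sign reversed for Eif4a1 (0.054 with total counts alone), Hba-a1 (0.066 with the replicate block) and mt-Nd1 (0.138 with the length offset), none a DEG. Of the list medians reported, those of 8 lists also changed sign when 1 library was left out: proximal tubule (-0.15 without T-D replicate 4), macrophages (-0.14 without PT-D replicate 2), T and NK cells (-0.17), mitochondrially encoded mRNAs (-0.17) and intercalated cells (-0.08, all without PT-D replicate 1), distal convoluted tubule (0.15 without PT-D replicate 3), tubular injury (-0.08 without T-D replicate 1) and adipocytes (-4.26 without PT-D replicate 2). The cause was not tested. With 3 and 4 mice per group, low-count genes such as Zfp33b and Gm46209 have wide intervals.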
